A study of Mus musculus with 6 samples.

Results

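Cytosolic chaperones and heat shock genes were examined as a set of 38 named genes, which holds the Hsp90 and Hsp70 chaperones with their cochaperones, the small heat shock proteins, the TRiC chaperonin, the heat shock factors and, beside them, 3 chaperones that act in mitochondria. The members were chosen by the gene symbol that the array annotation gives to each probe set, a rule that uses no array signal, although the list of genes was drawn up with earlier results of these data known. Of the 38 genes, 35 had at least 1 probe set of their own, 78 of the 22690 probe sets on the array, which carried 12393 genes in all. Of these 35 genes, 34 were bright enough to be tested, with 73 probe sets. Hsf2, a heat shock transcription factor, was below 10 units in both groups, at 3.12, 9.03 and 3.57 units in control and 0.427, 5.65 and 0.285 with E2. Ptges3, the Hsp90 cochaperone p23, had only probe sets that it shares with a pseudogene and is not described. Hsp90ab1 and Hsf1 had no probe set listed under their symbols, so the constitutive cytosolic Hsp90 and the main heat shock transcription factor were not analysed here.

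The study asked how estradiol (E2) changes gene expression in mesenchyme cells of the fetal mouse prostate. Urogenital sinus (UGS) mesenchyme of male CD-1 fetuses at gestation day 17 was cultured, and first passage cells were held for 3 days in medium without estrogen. All cells, controls included, received 690 pM of the androgen dihydrotestosterone (DHT). The 3 E2 cultures were then given 100 nM E2 for 4 days and the 3 control cultures the 0.05% ethanol vehicle, and total RNA was hybridized to Affymetrix mouse genome arrays, 1 array per sample. The cells were a primary mesenchymal fraction, from which epithelial cells had been discarded, in place of a clonal line, and it is not given whether the 3 samples of a group came from separate cell preparations. The p-values therefore cover only variation among these 6 samples, part or all of which may be technical. In RNA from whole cultures, fewer cells of a type and less RNA per cell cannot be told apart.

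Chaperones bind unfolded or partly folded proteins and release them in cycles driven by ATP. Hsp70, aided by J-domain proteins that bring substrates and by exchange factors that release nucleotide, hands steroid receptors to Hsp90, and the Hsp90 complex with p23 and an immunophilin holds steroid receptors such as the estrogen and glucocorticoid receptors in a state that can bind hormone. Under heat and other proteotoxic stress, heat shock factors bind arrays of inverted GAA units in the promoters of the inducible chaperones, while TRiC folds newly made actin and tubulin.

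The upstream sequences of 5 members are shown because they cover the one member called, a gene with lower values in all of its probe sets, and 3 genes with different arrangements of the heat shock element. They are the 250 bases before the annotated start, on the gene's strand and in the GRCm38.p6 build of RefSeq, and capitals mark GAANNTTC or TTCNNGAA, an inverted pair of heat shock units, or overlapping runs of such pairs.
Hspa4, chr11:53300480-53300729, minus strand: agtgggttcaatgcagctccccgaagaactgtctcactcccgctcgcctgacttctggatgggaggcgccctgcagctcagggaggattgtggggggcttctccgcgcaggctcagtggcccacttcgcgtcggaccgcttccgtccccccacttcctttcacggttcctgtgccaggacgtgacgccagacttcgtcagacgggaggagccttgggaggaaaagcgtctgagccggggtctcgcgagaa
Hspb8, chr5:116422865-116423114, minus strand: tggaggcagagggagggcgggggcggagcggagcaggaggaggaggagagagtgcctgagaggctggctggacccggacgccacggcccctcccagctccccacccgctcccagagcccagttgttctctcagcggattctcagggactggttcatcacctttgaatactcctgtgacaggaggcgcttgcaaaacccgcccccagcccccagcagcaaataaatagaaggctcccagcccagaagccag
Hspa1b, chr17:34959239-34959488, minus strand: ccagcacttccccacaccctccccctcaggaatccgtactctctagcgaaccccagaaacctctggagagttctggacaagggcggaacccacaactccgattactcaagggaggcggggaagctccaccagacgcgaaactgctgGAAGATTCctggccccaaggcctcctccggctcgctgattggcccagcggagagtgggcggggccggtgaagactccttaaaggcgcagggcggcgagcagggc
Hspe1, chr1:55087898-55088147, plus strand: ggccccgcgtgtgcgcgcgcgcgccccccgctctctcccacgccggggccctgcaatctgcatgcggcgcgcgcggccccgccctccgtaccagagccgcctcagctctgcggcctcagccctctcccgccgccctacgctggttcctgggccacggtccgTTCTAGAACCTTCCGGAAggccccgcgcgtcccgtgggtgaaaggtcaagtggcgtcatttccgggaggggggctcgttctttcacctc
Dnajb6, chr5:29735648-29735897, plus strand: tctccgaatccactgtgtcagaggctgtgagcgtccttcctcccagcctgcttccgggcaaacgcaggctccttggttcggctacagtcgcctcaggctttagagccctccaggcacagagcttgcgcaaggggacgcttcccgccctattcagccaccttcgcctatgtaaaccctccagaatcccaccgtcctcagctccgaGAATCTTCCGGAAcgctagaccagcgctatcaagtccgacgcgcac

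RefSeq windows were found for 30 of the 38 members, 39 windows in all, since some genes have several annotated starts. GAANNTTC or TTCNNGAA, each its own reverse complement, was present in 15 of these 39 windows, belonging to 13 genes, and in 12.8% of all 32851 promoter windows. The members with the motif were Cct2, Cct5, Cdc37, Dnaja1, Dnajb4, Dnajb6, Hspa1a, Hspa1b, Hspb1, Hspd1, Hspe1, Hsph1 and Stub1. A run of 3 alternating units, GAANNTTCNNGAA or TTCNNGAANNTTC, which always holds the shorter motif, was found in 4 of the 39 windows, those of Dnajb6, Hspd1 and Hspe1, and in 0.466% of all windows. Hspd1 and Hspe1 lie head to head, and 285 bases of their 300-base windows are the same sequence, so their matches are the same stretch. The windows of Hspa1a and Hspa1b differed at 3 of 250 bases. The palindromic estrogen response element GGTCANNNTGACC was in none of the 39 windows and in 0.0639% of all windows. The Hspa4 and Hspb8 windows shown above held neither motif, and a match or its absence is a description of these letters in this window only.

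The members differed little between E2 and control cells. Values are array signals in linear units after each array was scaled to the same median of 17.2 units, and differences are E2 minus control on the log2 scale. They were tested with limma over all 14223 probe sets of at least 10 units in either group, and a gene was represented by its brightest probe set. Only 1 of the 34 members tested passed an adjusted p of 0.05, Hspa4, which was higher with E2. Over all 8257 genes the share called was 0.908% in either direction, 0.569% higher and 0.339% lower. By the fold rule of the study's methods, a 1.5-fold change with an unadjusted p of 0.05, the count was again 1 member, Hspa4, against 3.95% of all genes in either direction, 2.03% higher and 1.91% lower. An unadjusted p under 0.05 was reached by 3 members, Hspa4 and Cryab with positive and Hspb8 with a negative difference, against 8.34% of all genes, 3.61% higher and 4.74% lower. The 3 E2 values and the 3 control values did not overlap in 4 of 34 members, the same 3 genes and Cct7, against 14.5% of all genes, 6.01% higher and 8.54% lower. These shares do not set the members apart from the background.

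**Figure D1:**
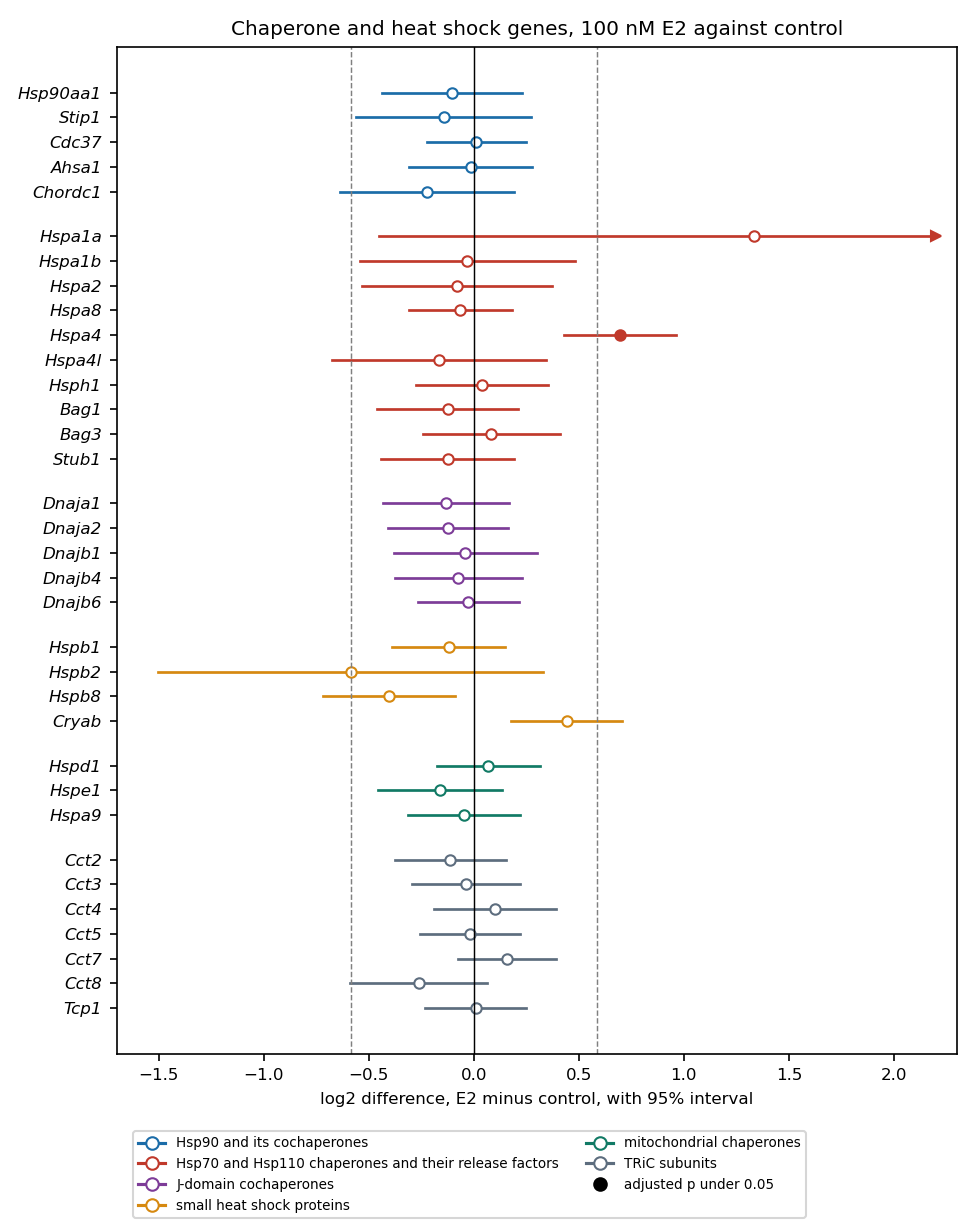
Log2 difference, E2 minus control, of the 34 members tested, grouped by role, with points for the estimate of the brightest probe set, bars for its 95% interval from limma and dashed lines at 1.5-fold. Only Hspa4, at 0.69, is drawn as passing an adjusted p of 0.05, and the wide interval of Hspa1a runs past the axis, where an arrow marks it.

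The precision was sufficient to bound most members. The 95% interval of the difference lay inside 1.5-fold in both directions for 26 of 34 members (76.5%), compared with 46.3% of all genes. Most members had bright probe sets, and bright probe sets were measured more precisely. Among genes of at least 100 units the interval lay inside 1.5-fold for 22 of 27 members (81.5%) and for 85.9% of all 2391 genes, with a median standard error of 0.138 over those genes. Between 20 and 100 units the figures were 4 of 5 members and 43.1% of genes, and under 20 units no member and no gene was bounded in this way. The 8 members whose intervals reached past 1.5-fold were Hspa4, Cryab, Hspb8, Hspb2, Hspa1a, Hspa4l, Chordc1 and Cct8.

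**Figure D2:**
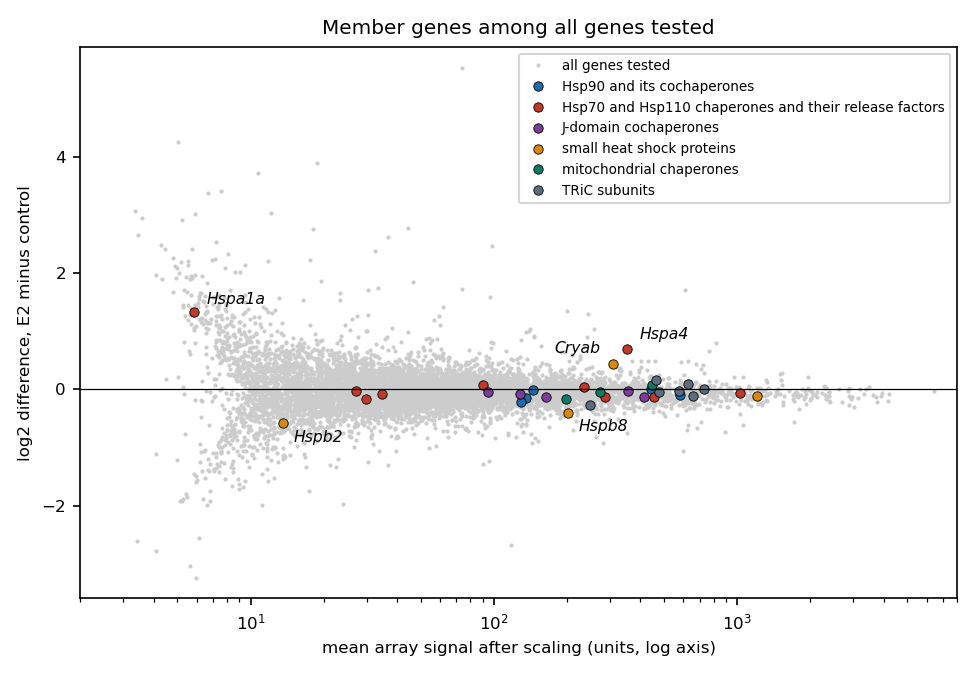
Log2 difference, E2 minus control, against the mean signal in units on a log axis for 8257 genes in grey, with the 34 members in color. Most members lie among bright genes and close to 0, and Hspa4 at 0.69 and Hspa1a at 1.33 stand above the others.

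The median difference of the members was -0.06, beside -0.03 for all genes tested, and 24 of 34 members had a negative difference, beside 56.1% of all genes. This split followed the scaling: with quantile normalization, and with the values as deposited, 17 of the 34 were negative. No direction is therefore given for the members as a whole.

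Hspa4, an Hsp110 family protein that releases nucleotide from Hsp70, was the one member called, and it was higher with E2. Its brightest probe set read 262, 281 and 286 units in the control samples and 465, 388 and 495 in the E2 samples. The mean went from 276 ± 13 to 449 ± 55.2 units (SD, n = 3), a 1.62-fold rise with a 95% interval of 1.34 to 1.95, and the adjusted p from limma was 0.0157. Every E2 sample was above every control sample. A second, dimmer probe set read 38.5, 23.2 and 11.8 units in control and 43.9, 42.8 and 54.2 with E2, a difference of 1.09 ± 0.33 (SE) with an adjusted p of 0.277, and its groups did not overlap either. The remaining probe set, at 40.2, 20.3 and 22.5 units in control and 27.8, 40.3 and 36.7 with E2, gave 0.39 ± 0.27 (SE), adjusted p = 0.781, with overlapping groups. The 3 probe sets all had positive differences, and only the brightest passed the test. The call was lost when control replicate 1, 2 or 3 or E2 replicate 1 or 3 was left out, with adjusted p-values of 0.0591 to 0.106 and the count of members called going from 1 to 0, and it was kept without E2 replicate 2. It was also lost with the values as deposited (adjusted p = 1), without the variance trend (0.239), with an ordinary linear model (0.326) and with the mean of the 3 probe sets (0.13), while the difference itself stayed between 0.62 and 0.82.

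**Figure D3:**
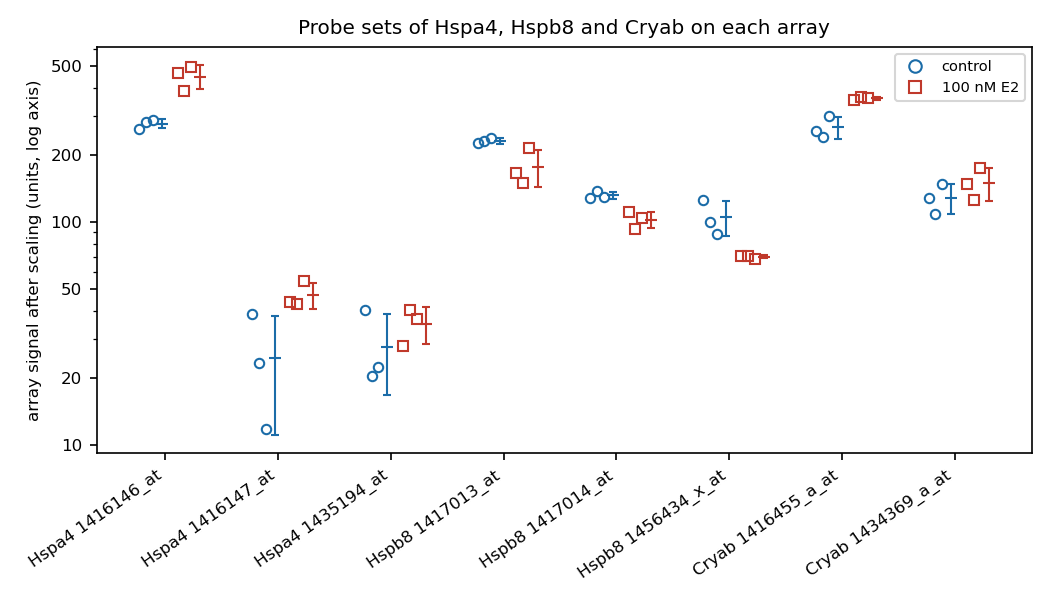
Signal in units on a log axis for each array, for the 3 probe sets of Hspa4, the 3 of Hspb8 and the 2 tested of Cryab, with control and E2 samples as points and bars for the mean ± SD. The brightest Hspa4 probe set runs from 262 to 286 in control and from 388 to 495 with E2, and all 3 Hspb8 probe sets are lower with E2 without overlap.

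The other Hsp70 and Hsp110 chaperones and their release factors did not pass the test. Hspa8, the constitutive cytosolic Hsp70, read 1084, 964 and 1120 units in control and 952, 941 and 1146 with E2. Its difference was -0.06 ± 0.11 (SE), with a 95% interval of -0.31 to 0.18, and its 4 probe sets ran from -0.20 to 0.03. The groups overlapped, and the interval leaves room for only a small change. Hsph1, the heat-inducible Hsp110, read 201, 230 and 265 units in control and 273, 235 and 207 with E2, a difference of 0.04 ± 0.15 (SE). The stress-inducible Hsp70 gene Hspa1b was dim in both groups, at 29.1, 26.9 and 26.7 units in control and 23.6, 23.5 and 35.4 with E2, and its 3 probe sets gave -0.05 to 0.08. Its near copy Hspa1a had the largest difference of any member, 1.33 ± 0.83 (SE), but rested on signals of 3.75, 7.06 and 1.89 units in control and 16.5, 7.80 and 6.21 with E2. These groups overlapped, the 95% interval ran from -0.45 to 3.12, the adjusted p was 0.74, and the probe set entered the test through the E2 group alone. Hspa1a and Hspa1b encode nearly identical proteins, and a probe set of one may read the other.

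Among the remaining members of this group, the Hsp110 relative Hspa4l gave -0.17 ± 0.24 (SE) by its brightest probe set. A dim one gave 0.56 with overlapping groups (adjusted p = 0.808 from limma), but it entered the test through the E2 group alone. The testis-enriched Hsp70 gene Hspa2 gave -0.08 ± 0.21 (SE). Bag1, a nucleotide exchange factor of Hsp70, read 331, 284 and 284 units in control and 322, 212 and 303 with E2, a difference of -0.12 ± 0.16 (SE). Bag3, a heat-inducible exchange factor that works with Hspb8 in selective autophagy, gave 0.08 ± 0.15 (SE). Stub1, the ubiquitin ligase CHIP that marks chaperone clients for degradation, was likewise within the spread between samples, with a 95% interval inside 1.5-fold.

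The 4 small heat shock proteins, which hold unfolded proteins without ATP, had differences from -0.59 to 0.44, and none of the 4 passed the adjusted test. Cryab, alpha B-crystallin, read 255, 242 and 300 units in control and 353, 366 and 360 with E2, a difference of 0.44 ± 0.12 (SE) and a 1.36-fold ratio. Its groups did not overlap and its unadjusted p was 0.00285, but the adjusted p from limma was 0.176. A second probe set, at 128, 109 and 148 units in control and 149, 125 and 175 with E2, gave 0.22 ± 0.16 (SE) with overlapping groups. The positive difference of Cryab therefore stood below the threshold, and its lowest adjusted p under another setting was 0.0654 (array weights), or 0.0543 under one added after seeing the data, without both arrays of high 18S ribosomal RNA signal.

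Hspb8, the small heat shock protein that partners Bag3, had a difference of the opposite sign. Its brightest probe set read 225, 230 and 239 units in control and 167, 150 and 216 with E2, a difference of -0.40 ± 0.15 (SE) with an unadjusted p of 0.0158 and an adjusted p from limma of 0.442. The other two probe sets gave -0.36 ± 0.14 (SE), adjusted p = 0.488, and -0.57 ± 0.16 (SE), adjusted p = 0.204. In all 3 probe sets every E2 sample was below every control sample, but the probe sets read the same 6 RNA samples and are not separate replicates, and groups failed to overlap in 14.2% of all probe sets tested. Hspb1, an actin-associated chaperone, read 1375, 1105 and 1307 units in control and 1333, 1007 and 1154 with E2, with overlapping groups and a difference of -0.12 ± 0.12 (SE). Hspb2, a muscle-associated relative that lies beside Cryab in the genome, was dim, at 16.4, 12.3 and 22.8 units in control and 19.5, 8.69 and 8.0 with E2, and its interval of -1.50 to 0.33 was too wide to exclude either direction.

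Hsp90 and its cochaperones gave no call in either direction among the 5 genes tested of 7. Hsp90aa1, the inducible cytosolic Hsp90, read 582, 607 and 627 units in control and 701, 422 and 603 with E2. Its difference was -0.10 ± 0.16 (SE), with a 95% interval of -0.44 to 0.23, and E2 replicate 1 was the highest and E2 replicate 2 the lowest of the 6 samples. A second Hsp90aa1 probe set read 350, 359 and 336 units in control and 299, 276 and 320 with E2 without overlap, and its adjusted p was 0.678. Stip1, the Hop protein that joins Hsp70 to Hsp90, read 111, 127 and 206 units in control and 136, 126 and 126 with E2. Chordc1, an Hsp90 cochaperone induced by heat, read 125, 114 and 189 units in control and 107, 146 and 109 with E2. In both genes control replicate 3 was the highest sample, and the differences of -0.14 ± 0.19 and -0.22 ± 0.19 (SE) were within the spread. Cdc37, which delivers kinases to Hsp90, and Ahsa1, which stimulates its ATPase, were closest to 0, at 0.01 ± 0.11 and -0.02 ± 0.14 (SE).

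The steroid receptor chaperone machinery cuts across these roles, and 10 of its 12 members were tested. Hspa4 was the 1 gene called, and 9 of the 10 intervals lay inside 1.5-fold. Over all genes 0.908% were called, and 46.3% of intervals lay inside 1.5-fold, or 85.9% among genes of at least 100 units. The median difference of the 10 was -0.11 with 9 negative, beside 56.1% of all genes. Of the 10, 6 were negative under quantile normalization and 7 as deposited. A further 18 cochaperones of steroid receptor complexes that are not among the 38 genes were counted beside them. Of the 16 tested, none was called at an adjusted p of 0.05 and 2 had an unadjusted p under 0.05, both lower, Fkbp5 and Dnajc7. Over all genes an unadjusted p under 0.05 was reached by 8.34%, with 4.74% lower.

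Fkbp5, an immunophilin of the Hsp90 complex that is itself a classic target of the glucocorticoid receptor, read 108, 103 and 83.0 units in control and 71.9, 57.1 and 70.9 with E2. Its difference was -0.55 ± 0.17 (SE), the groups did not overlap, and the adjusted p from limma was 0.268. A second Fkbp5 probe set, at 57.7, 48.0 and 45.5 units in control and 29.7, 26.4 and 28.4 with E2, gave -0.83 ± 0.19 (SE) and an adjusted p of 0.0752. Both probe sets were lower in every E2 sample and neither passed. Fkbp4, the related immunophilin required for full progesterone receptor activity, read 74.2, 84.3 and 87.0 units in control and 102, 76.5 and 107 with E2, with overlapping groups and a difference of 0.21 ± 0.17 (SE). The difference between the responses of Fkbp4 and Fkbp5 was not tested. Ppp5c, the Hsp90-bound phosphatase, gave 0.03 ± 0.15 (SE), and St13, the Hsp70-interacting protein Hip, gave 0.08 ± 0.13 (SE). Other probe sets of these genes disagreed, at 0.38 for one of Ppp5c (adjusted p = 0.617) and -1.33 for a dim one of St13 (adjusted p = 0.718). Dnajc7, a J-domain protein that binds both Hsp70 and Hsp90, read 200, 266 and 175 units in control and 158, 127 and 197 with E2, which overlapped, and had an adjusted p of 0.604.

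**Figure D4:**
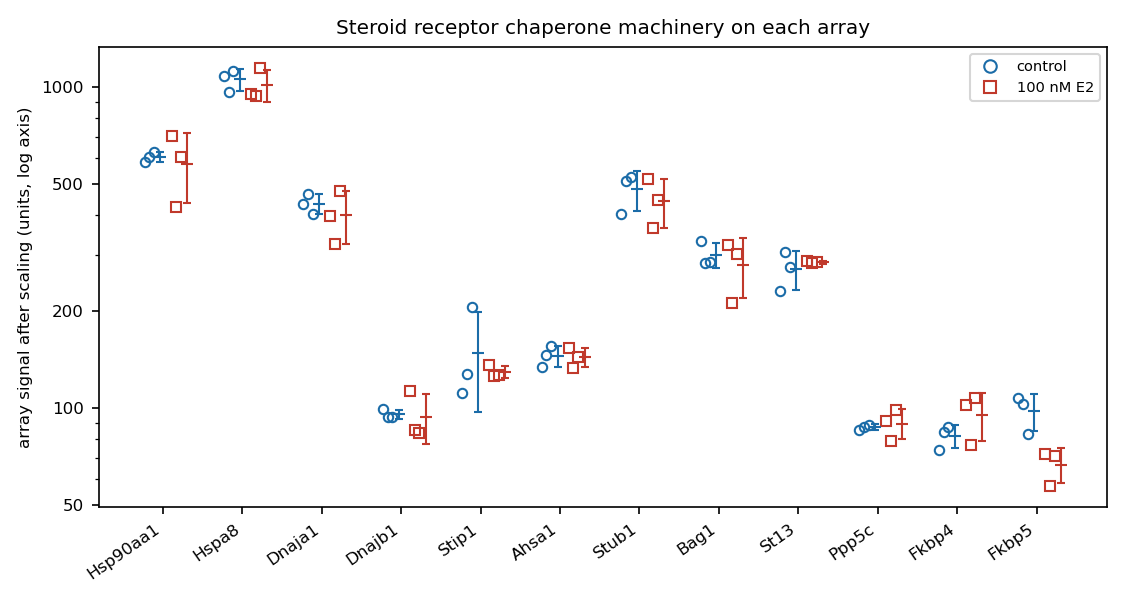
Signal in units for each of the 6 arrays, by brightest probe set, for 12 genes of the steroid receptor chaperone cycle other than Hspa4, which the plot of its probe sets shows, with control and E2 samples as points and bars for the mean ± SD. Control and E2 points overlap in all of these panels except Fkbp5, where control runs from 83.0 to 108 and E2 from 57.1 to 71.9. The 12 genes plotted include non-members and are not the 12 members counted in the text.

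Among the steroid receptor genes, which encode clients of this machinery, 3 were bright enough to be tested. Pgr, the progesterone receptor and an established estrogen target, read 5.83, 4.30 and 6.56 units in control and 24.7, 19.6 and 34.3 with E2, with an adjusted p from limma of 0.02. Its control signal lay under 10 units, so the E2 group alone brought it into the test, and without any filter the adjusted p was 0.042. The call was lost without E2 replicate 1 (0.118) or 3 (0.221), without the variance trend (0.0579) and with an ordinary linear model (0.307). Esr1, estrogen receptor alpha, read 6.91, 6.3 and 1.27 units in control and 18.8, 15.6 and 14.7 with E2, with an adjusted p of 0.367, and likewise passed the filter only by its E2 signal. Nr3c1, the glucocorticoid receptor, gave 0.03 ± 0.18 (SE) by its brightest probe set and -0.44 and -0.41 by the others, with adjusted p-values of 0.683 and 0.848. Esr2 was below 10 units in both groups, and Nr3c2 had no listed probe set of its own.

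Of the 10 members listed as strongly heat inducible, none was called, beside 0.908% of all genes. The median difference of the 10 was -0.04, and in 6 of 10 the interval lay inside 1.5-fold, beside 46.3% of all genes. The activity of heat shock factor was not tested. Dnajb1, the J-domain partner of inducible Hsp70, read 99.1, 93.9 and 93.7 units in control and 113, 85.1 and 83.6 with E2, a difference of -0.04 ± 0.16 (SE). With Hsph1, Hspa1b and Hsp90aa1 above, it was within the spread between samples. Hspa1a, the largest difference in this group at 1.33, was dim and had an interval of -0.45 to 3.12, which bounds it poorly. Only Cryab in this group had an unadjusted p under 0.05. A separate list of 20 heat shock family genes outside the 38 had 12 tested, none called and 1 with an unadjusted p under 0.05, Hspb7. This cardiovascular small heat shock protein read 52.0, 42.2 and 43.2 units in control and 68.4, 65.5 and 75.6 with E2, a difference of 0.61 ± 0.17 (SE) with an adjusted p of 0.182, and its other probe sets gave 0.29 and 0.18. Of the 12 tested on this list, 10 had positive and 2 negative differences, with a median of 0.16, beside 56.1% negative over all genes. The count of negative differences was also 2 with quantile normalization and as deposited. Hspa12b, at 1.91 without overlap and an adjusted p from limma of 0.643, entered the test through the E2 group alone. Of 8 further stress-inducible genes, 6 were tested and none was called.

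The J-domain cochaperones, which present substrates to Hsp70 and start its ATPase, had the narrowest range of any role. All 5 were tested, their differences ran from -0.13 to -0.03, and all 5 intervals lay inside 1.5-fold. Dnaja1 read 433, 464 and 401 units in control and 397, 325 and 474 with E2. Dnajb6, whose promoter window carries the run of 3 heat shock units shown above, gave -0.03 ± 0.11 (SE). Dimmer second probe sets of Dnaja1, Dnajb1 and Dnajb6 were lower with E2 without overlap, at -0.21, -0.27 and -0.37, with adjusted p-values of 0.757, 0.718 and 0.665. That of Dnajb4 was higher with E2 without overlap, at 0.08, and that of Dnaja2 gave 0.29 with overlapping groups. Groups failed to overlap in 14.2% of all probe sets tested.

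The 3 mitochondrial chaperones gave no call. Hspd1, the Hsp60 chaperonin, read 437, 449 and 420 units in control and 471, 415 and 488 with E2, a difference of 0.07 ± 0.11 (SE). Hspe1, its Hsp10 lid, gave -0.16 ± 0.14 (SE), and the difference between the pair was not tested. Hspa9, the mitochondrial Hsp70, gave -0.05 ± 0.12 (SE). All 3 intervals lay inside 1.5-fold. Of 8 other mitochondrial chaperones and proteases, all 8 were tested and none was called. Beside 8.34% of all genes, 1 of the 8 had an unadjusted p under 0.05. That gene, Grpel1, the exchange factor of Hspa9, read 104, 99.2 and 132 units in control and 153, 142 and 134 with E2, a difference of 0.36 ± 0.15 (SE) with an adjusted p of 0.574.

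The 7 members that encode subunits of TRiC, the double ring that folds actin and tubulin, gave no call, and 6 of 7 intervals lay inside 1.5-fold. Cct7 read 462, 429 and 422 units in control and 498, 498 and 469 with E2. Its groups did not overlap, its difference was 0.16 ± 0.11 (SE), its adjusted p was 0.771, and its second probe set gave -0.08 with overlapping groups. Cct8, at 247, 335 and 243 units in control and 225, 258 and 201 with E2, lay at the other end, with -0.26 ± 0.15 (SE) and an adjusted p of 0.718. The other 5 subunits lay between -0.11 for Cct2 and 0.10 for Cct4. Subunits of one complex thus had differences of both signs, none past the threshold. The remaining TRiC and prefoldin genes added 9 tested genes of 11, the subunit gene Cct6a among them at 0.14 ± 0.12 (SE), none called at an adjusted p of 0.05 and none at an unadjusted p under 0.05.

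The arrays did not contribute evenly to the spread. E2 replicate 2 was the lowest E2 sample for 21 of 34 members, with a median deviation from the E2 mean of -0.11. Control replicate 3 was the highest control sample for 18 of 34 and the lowest for 12, with a median deviation of 0.05. These counts were not made over all genes, so they do not show a trait of the members. These same 2 arrays had a signal for the 5′ probe set of 18S ribosomal RNA of 345 and 361 units, against 21.6 to 44.9 on the other 4 arrays. Without E2 replicate 2 alone, the median difference was 0.0174 for the members and 0.0235 for all genes tested, and Hspa4 was still called. Without both arrays, an alternative added after seeing the data, the median difference was 0.03 for the members and 0.032 for all genes. Hspa4 was still called there, and the count of members called was 1. The median of the members thus moved with that of all genes. The part of these arrays in the spread of single members was not tested.

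**Figure D5:**
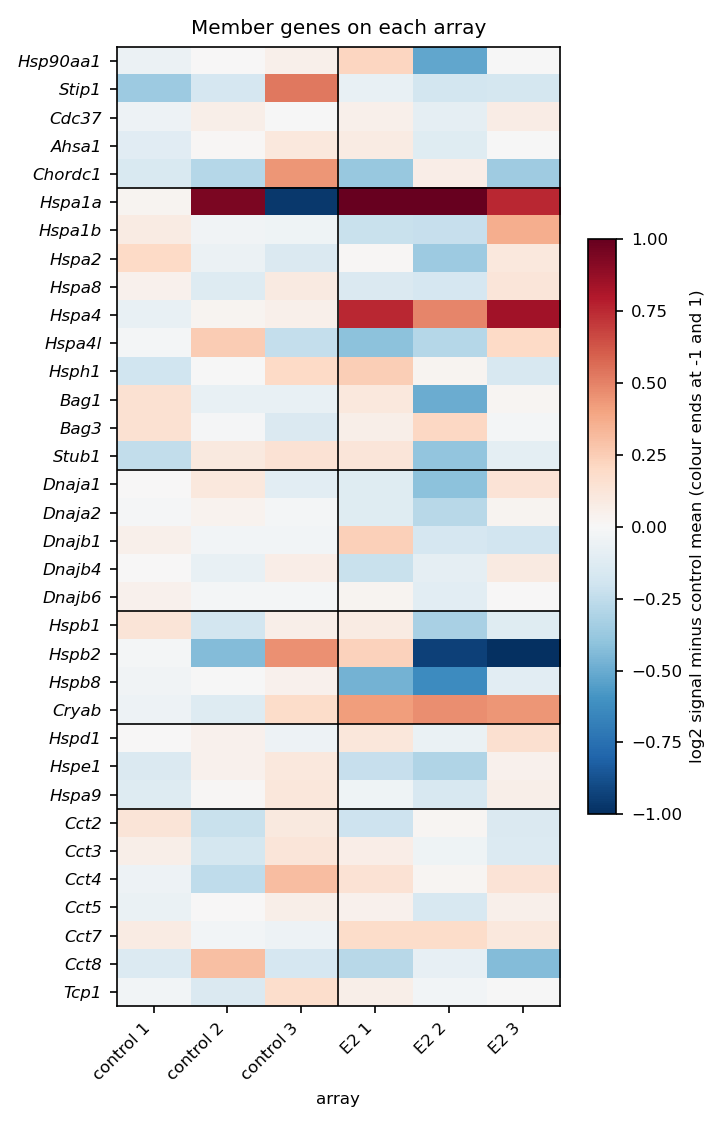
Heat map of the 34 members in rows, by role, and the 6 arrays in columns, colored by log2 signal minus the mean of the 3 control arrays, with colors ending at -1 and 1. Hspa4 is above its control mean in all 3 E2 arrays and Hspb8 below it. E2 replicate 2 is the lowest E2 array for 21 of the 34 members, a count not made over all genes.

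Of the mesenchyme markers, 8 of 8 were tested and none called. By brightest probe set, their control means ran from 20.8 units for Twist1 to 4327 for Col1a2. The summed signal of 7 epithelial markers was 53.0 to 88.2 units in control and 130 to 136 with E2, and Krt18 was called, at 42.3, 38.2 and 36.8 units in control and 83.5, 60.4 and 72.1 with E2. Krt8, Krt14 and Krt19 entered the test through the E2 group alone, which fixed the sign of their differences (unadjusted p = 0.0218 from limma for Krt19), and the defining markers Krt5, Epcam and Cdh1 were below 10 units in both groups. By their brightest probe sets, the 6 tested of 7 macrophage markers all had negative differences, beside 56.1% of all genes. None was called at an adjusted p of 0.05, and Itgam was below 10 units. The summed signal of the 7 ran from 510 to 854 units in control and 466 to 560 with E2. Other probe sets disagreed. A dimmer Csf1r probe set gave 0.90 without overlap (adjusted p = 0.587 from limma), another Csf1r probe set -0.18, and a dim C1qb probe set 0.68 with overlapping groups. C1qb, a complement gene of macrophages, was the 1 of these markers with an unadjusted p under 0.05 by its brightest probe set. That probe set read 31.1, 58.9 and 55.1 units in control and 24.7, 20.7 and 14.9 with E2. Its difference was -1.24 ± 0.28 (SE) with an adjusted p from limma of 0.063. The part of these cells in the differences of Hspa4, Cryab and Hspb8 was not tested.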

How the data were processed

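The authors converted the scanned images with Affymetrix software (GeneChip Operating Software, Gene Expression Console), and the deposited values are linear intensities, 1 per probe set and array. How the software computed, background-corrected and scaled them is not given in the sources used here. Array medians as deposited ran from 13.7 to 21.8 units, so each array was scaled to a common median, which assumes that most probe sets do not change. The 64 control probe sets were left out, and 8403 with a mean below 10 units, as deposited, in both groups were not tested. The log2 values of the other 14223 were fitted with limma 3.58.1 in R 4.3.3 (lmFit, eBayes with a variance trend, two-sided, Benjamini-Hochberg over all probe sets tested). The number of arrays, 3 per group, limits the precision. Groups came from the sample titles. Symbols came from the platform annotation, updated by gene identifier to RefSeq. Before the filter, 20380 probe sets had 1 symbol, 691 had several and 1555 were not listed. Those of several symbols that passed the filter were tested but not named. Genes were represented by the probe set of highest mean log2 value. Every member is accounted for, and non-members were named for a role in the receptor complex, in each list for an unadjusted p under 0.05, or where a marker or subunit bears on a result. The members and lists were chosen with earlier results of these data known. Promoter windows came from RefSeq, with no genome build stated for the arrays. The scripts were tested on simulated data. Alternatives were no scaling or quantile normalization, log2(value + 16) or a floor of 10 units, a filter at 100 units or none, eBayes without trend, an unmoderated model, a replicate block, array weights, averaged probe sets, and leaving out each replicate.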

Additional observations from a re-analysis of the deposited data

How the results depend on the processing

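The difference of Hspa4 kept its sign under every alternative. That of Pgr did so wherever Pgr was tested, but it entered the filtered tests through the E2 group alone, which fixed its sign there. The count of members called lower was 0 under every alternative. The count called higher was 1, and 0 with the values as deposited, without the variance trend, with an ordinary linear model and with probe sets averaged per gene. Leaving out 1 replicate gave 0 to 1. Past 1.5-fold and an unadjusted p of 0.05, the count higher was 2 without the trend and 1 under the other alternatives, and the count lower was 0, and 0 to 1 when 1 replicate was left out, with the 1 reached without E2 replicate 1. The median difference of the members was 0.0288 without both arrays of high 18S signal, chosen after seeing the data, and -0.11 to 0.0174 when 1 replicate was left out. Over all genes tested the same settings gave 0.032 and -0.0584 to 0.0235. Among the genes of the other chaperone and receptor lists, the count called higher was 1 (Pgr), and 0 with a filter at 100 units, without the trend and with the ordinary linear model, and 0 to 1 without 1 replicate, with the 0 reached without E2 replicate 1 or 3. This count was added after seeing the data.

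Deviations from the group means of samples with the same replicate number correlated at 0.0078, -0.053 and -0.0583. Those of samples with different numbers correlated at -0.00971 to 0.0742. With 3 samples per group these values cannot show whether control and E2 samples were paired. With the number as a replicate block, the count of members called was 1 and their median difference -0.06, and no call among the members changed. Probe sets below 10 units in both groups were not tested, and those below 10 units in 1 group, such as Hspa1a and Pgr, rest on dim signals. The deposited values give no depth beyond signal over background.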
